A study of Mus musculus with 12 samples.

Results

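The transcripts of 10 genes of autophagy and mitophagy were followed across 4 lines of mouse embryonic fibroblasts (MEFs). The 10 genes were taken from a given list, *Rb1cc1*, *Ulk1*, *Becn1*, *Atg5*, *Map1lc3b*, *Gabarapl1*, *Sqstm1*, *Optn*, *Bnip3l* and *Pink1*, and each was found as 1 row among the 24453 genes of the count table. TM6 is an SV40 large T-antigen immortalised line of the C57BL6/J background in which *Pnpt1*, the gene for the mitochondrial RNA-processing enzyme PNPase, carries loxP sites on both alleles. All 4 lines go back to cells with these floxed alleles, which Cre recombined in PKO-1 and PKO-6. Uridine (50 µg/mL) was in the medium of each line. The rho0 line was derived from TM6 by 3 weeks of ditercalinium (750 ng/mL), an intercalator used to remove mitochondrial DNA, and goes back to a colony of 1 cell. PKO-1 and PKO-6 are clones that grew from individual TM6 cells after an adenovirus had delivered Cre recombinase, which excises exon 2 of *Pnpt1*. The paper reports that these clones, like rho0, had no detectable mitochondrial DNA and did not respire. RNA was sequenced from 3 cultures of each line, 12 libraries in all. Since rho0, PKO-1 and PKO-6 are each 1 clone, the p-values between single lines measure the spread between cultures of a clone. The treatment and the choice of clone cannot be told apart. Where PKO-1 and PKO-6 were pooled, their libraries counted as replicates, so those p-values mix the gap between clones with the spread between cultures.

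Autophagy encloses cytoplasm in a double membrane, the autophagosome, and delivers it to the lysosome. The ULK kinase complex starts the process, a lipid kinase complex built around Beclin 1 marks the site where the membrane grows, and ubiquitin-like enzymes attach proteins of the ATG8 family to it. Cargo receptors then bridge ATG8 proteins and the cargo. In mitophagy, the removal of mitochondria, the cargo is marked either with ubiquitin or by receptors that sit in the outer mitochondrial membrane. The kinase PINK1 phosphorylates this ubiquitin. Transcript levels do not measure the flux through autophagy.

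Totals per library ranged from 47164860 to 67991378 counts, with a median of 55405646, and the 10 genes held between 594 and 36014 counts each in any library. *Rn45s*, the ribosomal RNA precursor, took 12.2% to 19.6% of the counts. *Pnpt1* was sequenced at 2832 to 3319 normalised counts in TM6, 5051 to 5510 in rho0, 1191 to 1276 in PKO-1 and 1720 to 2214 in PKO-6, so both clones lay below TM6. Of the markers of the labelled cell type, *Col1a1*, *Vim* and *Fn1* were abundant, whereas *Thy1* did not exceed 4.99 normalised counts in any library. By the calls defined below, 1 of the 9 fibroblast markers tested was higher than TM6 in rho0 and 7 were lower. The counts were 3 and 3 in PKO-1, and 1 and 7 in PKO-6. That is 88.9%, 66.7% and 88.9%, beside 42.1%, 34.3% and 41.3% of all tested genes. *Fn1* was called higher in each line and *Col1a1* lower. The 10 fibroblast markers summed to 548252 to 596524 normalised counts in TM6, 453121 to 505950 in rho0, 610711 to 660833 in PKO-1 and 355730 to 396654 in PKO-6. The 17 markers of other cell types summed to 567 to 607, 984 to 1113, 1500 to 1543 and 664 to 704 in the same order, with *Myog* and *Adgre1* at 0 in all libraries. The part of these differences in the results was not tested. In bulk RNA, fewer cells of a kind and less RNA per cell cannot be told apart.

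TPM, a share of all transcripts that corrects for transcript length, was used here to compare genes with each other and to describe each line. It entered no test between lines. On this scale *Sqstm1* stood apart from the other 9 genes in every line. Its level was 275 ± 5.45 TPM in TM6, 507 ± 15.7 in rho0, 327 ± 8.66 in PKO-6 and 172 ± 5.57 in PKO-1 (± SD over 3 libraries), and its mean over all libraries lay at the 98.6th percentile of all genes. In TM6 *Map1lc3b* followed at 89.0 ± 4.37 TPM, ahead of *Becn1* at 60.8 ± 2.12, *Gabarapl1* at 59.8 ± 0.958 and *Bnip3l* at 57.7 ± 3.97. The last 3 did not differ beyond their spread, since the libraries of each overlapped those of the next. *Rb1cc1* at 32.6 ± 3.23 TPM and *Atg5* at 31.0 ± 1.45 also overlapped, as did *Pink1* at 13.2 ± 0.930 and *Optn* at 12.2 ± 0.538, with *Ulk1* between the pairs at 17.5 ± 1.48. The order was different in rho0, where *Becn1* at 80.0 ± 1.25 TPM and *Bnip3l* at 69.9 ± 2.49 lay above *Map1lc3b* at 53.9 ± 1.62. *Gabarapl1* stood there at 23.9 ± 0.302 TPM, next to *Atg5* at 21.6 ± 0.803, and *Ulk1* was the lowest of the 10 at 11.1 ± 0.806. *Pink1* was the lowest in PKO-1, at 9.65 ± 0.370 TPM, but lay above *Ulk1* and *Optn* in PKO-6, at 18.5 ± 1.12. The ratio of *Map1lc3b* to *Gabarapl1*, which encode ATG8 proteins of different subfamilies, was 1.40 to 1.59 in TM6, 2.18 to 2.31 in rho0, 1.59 to 1.65 in PKO-1 and 1.80 to 2.01 in PKO-6. The 4 lines did not overlap in this ratio, although TM6 and PKO-1 adjoined.

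**Figure D1:**
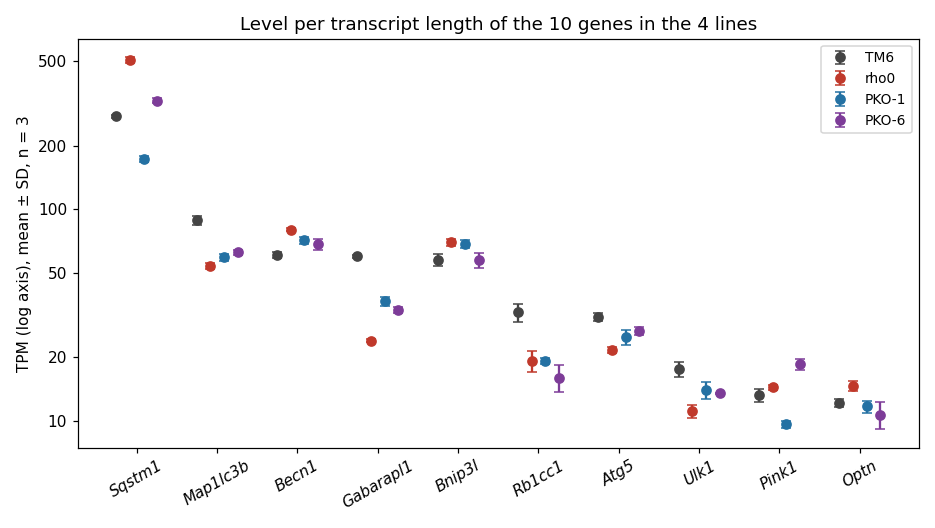
Mean level per transcript length of the 10 genes in TM6, rho0, PKO-1 and PKO-6, in TPM on a log axis, with bars for the SD of 3 libraries and genes ordered by their level in TM6. *Sqstm1* is the highest gene in each line, from 172 TPM in PKO-1 to 507 in rho0, and *Pink1* and *Optn* are the lowest genes in TM6.

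For tests, normalised counts were compared between lines, and a gene was called at an adjusted p below 0.01 with an absolute log2 fold change above 0.5 (edgeR's quasi-likelihood test, Benjamini-Hochberg adjustment over 14026 tested genes). All 10 genes passed the filter on low counts. In rho0 against TM6, 1 gene was called higher and 4 lower, 5 of 10, beside 42.1% of all tested genes (20.7% higher and 21.4% lower). In PKO-1 against TM6, 0 were called higher and 4 lower, beside 34.3% of all genes (16.4% higher and 17.9% lower). In PKO-6 against TM6, 1 was called higher and 2 lower, beside 41.3% of all genes (21.9% higher and 19.4% lower). The median log2 fold change of the 10 genes was -0.17, -0.32 and -0.15 in these comparisons, and that of all tested genes was 0.02, 0.00 and 0.01. The share of genes called was thus near the background for this group in each line, and what follows concerns the individual genes. The same background shares apply to the counts by list below. Between the clones, PKO-1 against PKO-6, 0 were called higher and 2 lower, beside 29.1% of all genes (11.5% higher and 17.6% lower). The 3 comparisons with TM6 share the TM6 libraries, so their values are given side by side and are not independent.

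**Figure D2:**
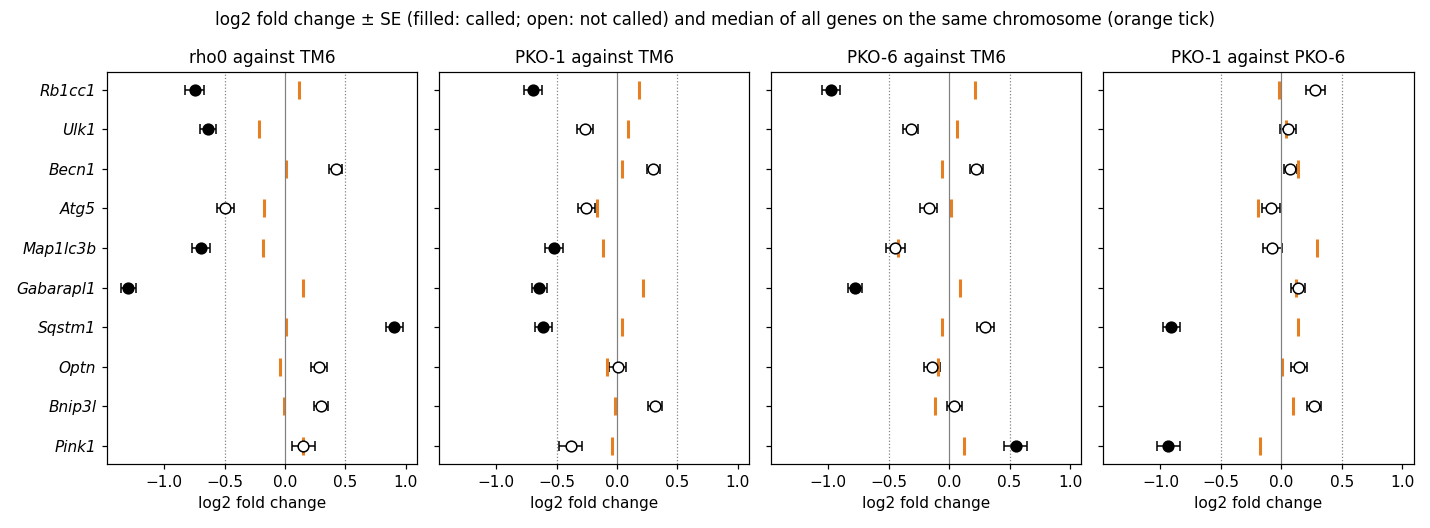
log2 fold change of each gene (points, with bars for the standard error) in rho0, PKO-1 and PKO-6 against TM6 and in PKO-1 against PKO-6, where filled points were called, dotted lines mark a log2 fold change of 0.5 in either direction, and orange ticks give the median of all tested genes on the same chromosome. *Rb1cc1* and *Gabarapl1* lie left of the dotted line in each comparison with TM6, and *Sqstm1* lies at 0.91 in rho0 and -0.61 in PKO-1.

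*Rb1cc1* (chr1:6214662-6276104, plus strand, GRCm38, 24 exons) encodes FIP200, the scaffold of the ULK kinase complex, and its transcript was lower in all 3 derived lines. The TM6 libraries held 6505, 7769 and 7882 normalised counts. The rho0 libraries held 4160, 4492 and 4548, the PKO-1 libraries 4745, 4578 and 4343, and the PKO-6 libraries 3583, 3581 and 4083. Every TM6 library lay above all 9 other libraries, and the lowest values were those of PKO-6. Against TM6 the log2 fold change was -0.75 ± 0.077 (SE) in rho0 (edgeR, Benjamini-Hochberg adjusted p = 1.13e-06), -0.70 ± 0.077 in PKO-1 (adjusted p = 2.82e-06) and -0.98 ± 0.078 in PKO-6 (adjusted p = 6.76e-08). The genes of chromosome 1 as a whole moved the other way, with medians of 0.11, 0.18 and 0.21.

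*Ulk1* (chr5:110784489-110810081, minus strand) encodes the kinase of the same complex. It was measured at 3165, 2816 and 2725 normalised counts in TM6, 1864, 1876 and 1856 in rho0, 2303, 2390 and 2562 in PKO-1, and 2388, 2423 and 2164 in PKO-6. The libraries of rho0 were the lowest and nearly equal, and no library of a derived line reached the TM6 range. Only the rho0 difference was called, at a log2 fold change of -0.64 ± 0.065 (edgeR, adjusted p = 1.01e-06), while PKO-1 at -0.26 ± 0.065 and PKO-6 at -0.32 ± 0.065 did not reach the fold threshold. The 876 tested genes of chromosome 5 had a median of -0.21 in rho0, and with chromosome medians taken out *Ulk1* was at -0.42 and no longer called. Of the 5 genes of the ULK complex, 3 were called lower in rho0 (*Rb1cc1*, *Ulk1* and *Atg101*), and 2 in PKO-1 and 2 in PKO-6 (*Rb1cc1* and *Ulk2* in each). *Atg101*, at -0.76 in rho0, was at -0.38 relative to its chromosome, so that with *Ulk1* also short of the threshold on that scale only *Rb1cc1* of the 3 stayed past it in rho0. No gene of this list was called higher in any of the 3 lines. *Atg101* and *Ulk2* lie outside the rule for named genes and were chosen after their values were seen.

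**Figure D3:**
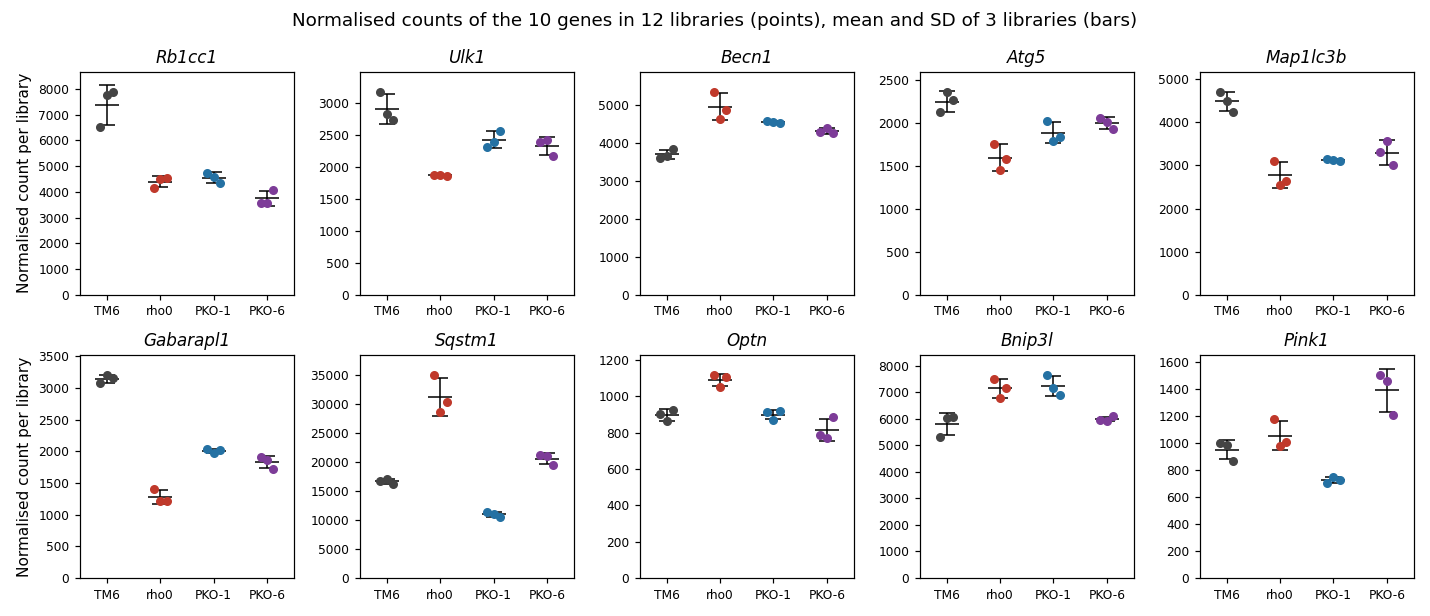
Normalised count of each of the 10 genes in the 12 libraries (points) by line, with the mean and SD of 3 libraries (black bars) and axes that start at 0. The 3 TM6 points of *Rb1cc1* and of *Gabarapl1* lie above all other points, and the *Sqstm1* points form 4 separate groups, lowest in PKO-1 and highest in rho0.

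*Becn1* (chr11:101288267-101302267, minus strand) encodes Beclin 1, a regulatory subunit of the lipid kinase that nucleates the autophagosome, and stood above TM6 by less than the fold threshold in each line. Its normalised counts were 3621, 3667 and 3835 in TM6, 5352, 4650 and 4880 in rho0, 4596, 4556 and 4534 in PKO-1, and 4296, 4413 and 4275 in PKO-6. All 9 libraries of derived lines lay above the 3 of TM6. The log2 fold changes of 0.42 ± 0.053, 0.30 ± 0.053 and 0.22 ± 0.053 had adjusted p-values of 7.77e-06, 0.000212 and 0.00183 (edgeR), and none was called. *Becn1* overlaps *Cntd1* on the opposite strand and its estimated counts held decimals in all 12 libraries, so part of its reads was divided between entries. Of the 18 genes of nucleation and membrane supply, 2 were called higher and 3 lower in rho0, 2 and 2 in PKO-1, and 3 and 2 in PKO-6. The median log2 fold change of this list was 0.08, 0.07 and 0.09. *Tmem41b*, which encodes a lipid scramblase of the endoplasmic reticulum, was called lower at -0.69 ± 0.079, -0.77 ± 0.080 and -0.87 ± 0.080 in rho0, PKO-1 and PKO-6. *Atg9a*, for the scramblase of the vesicles that seed the membrane, was called lower at -0.72 ± 0.075, -0.61 ± 0.075 and -0.999 ± 0.075. *Zfyve1*, for the omegasome marker DFCP1, was called higher at 0.53 ± 0.055, 0.55 ± 0.055 and 0.78 ± 0.054. It lies on chromosome 12, whose genes had medians of 0.55, 0.56 and 0.53, and relative to them it was at -0.02, -0.01 and 0.25, short of the fold threshold in each line.

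*Gabarapl1* (chr6:129533192-129542331, plus strand) encodes an ATG8 protein of the GABARAP subfamily and had the largest log2 fold change of the 10 genes in rho0. It was measured at 3072, 3199 and 3150 normalised counts in TM6 and at 1403, 1217 and 1216 in rho0. PKO-1 held 2034, 1974 and 2023, and PKO-6 held 1907, 1854 and 1722. The 4 lines did not overlap, with TM6 highest, then PKO-1, PKO-6 and rho0. Measured against TM6, the log2 fold change was -1.30 ± 0.061 in rho0 (edgeR, adjusted p = 3.95e-10), a 2.45-fold lower level, and -0.64 ± 0.060 in PKO-1 (adjusted p = 5.04e-07) and -0.78 ± 0.060 in PKO-6 (adjusted p = 4.72e-08). The genes of chromosome 6 had medians of 0.15, 0.21 and 0.09, in the other direction. *Gabarapl1* overlaps *1700101I11Rik* on the opposite strand, and whether the counting used strand is not given in the sources used here. The estimated counts of *Gabarapl1* held decimals in 0 libraries.

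*Map1lc3b* (chr8:121590468-121598047, plus strand) encodes LC3B, the ATG8 protein used most widely to mark autophagosomes. Its normalised counts were 4705, 4510 and 4254 in TM6, 3112, 2552 and 2648 in rho0, 3143, 3135 and 3103 in PKO-1, and 3308, 3577 and 3001 in PKO-6. All libraries of the derived lines lay below TM6, and these lines overlapped each other. A log2 fold change was called in rho0, at -0.70 ± 0.077 (edgeR, adjusted p = 2.31e-06), and in PKO-1, at -0.52 ± 0.077 (adjusted p = 4.33e-05), and was -0.45 ± 0.077 in PKO-6, short of the fold threshold. The 739 tested genes of chromosome 8 had a median of -0.43 in PKO-6, so that *Map1lc3b* was at -0.02 relative to its chromosome there. The same medians were -0.18 in rho0 and -0.11 in PKO-1, and relative to them the gene was at -0.52 and -0.41, of which the rho0 value was still called. Without replicate 2 of PKO-6, the PKO-6 difference was called at -0.54.

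*Atg5* (chr10:44268339-44364299, plus strand) encodes a part of the enzyme that attaches lipid to ATG8 proteins. It was measured at 2119, 2355 and 2263 normalised counts in TM6, 1752, 1444 and 1582 in rho0, 2018, 1788 and 1838 in PKO-1, and 2055, 2007 and 1923 in PKO-6. All 9 libraries of the derived lines were below TM6, by little in both clones. Its log2 fold change was -0.49 ± 0.072 in rho0, just short of the threshold although the adjusted p was 3.13e-05 (edgeR), -0.26 ± 0.072 in PKO-1 and -0.17 ± 0.071 in PKO-6. Of the 2 *Atg5* transcripts in the annotation, the minor one (NM_001314013.1) took 2.68% to 7.21% of the gene's counts, with overlap between all lines.

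Across the 16 genes of ATG8 proteins and their conjugation, 3 were called higher and 5 lower in rho0, 3 and 5 in PKO-1, and 4 and 4 in PKO-6. That is 50.0% in each line, beside 42.1%, 34.3% and 41.3% of all tested genes. The median log2 fold change was -0.12, -0.27 and -0.31. Genes of this list moved in opposite directions. *Atg4a*, for a protease that trims ATG8 proteins, was called lower at -1.37 ± 0.089, -1.03 ± 0.088 and -1.46 ± 0.089 in rho0, PKO-1 and PKO-6. This gene lies on the X chromosome, whose genes had medians of -0.75, -0.74 and -0.87. Relative to them it was lower in each line but short of the fold threshold in PKO-1. *Atg10*, for the enzyme that joins ATG12 to ATG5, was called higher at 1.48 ± 0.139, 0.85 ± 0.141 and 1.17 ± 0.139, and *Atg12* was called higher at 1.11 ± 0.052, 0.56 ± 0.052 and 1.07 ± 0.052. The chromosome that holds *Atg12* had medians of 0.42, 0.42 and 0.34, and relative to them the gene was at 0.68, 0.15 and 0.73, short of the fold threshold in PKO-1.

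The promoters of the ATG8 and conjugation genes and of *Sqstm1* are shown to set the members that moved beside the letters before their start sites. RefSeq promoters of GRCm38.p6, 250 bases before to 50 bases after the start, were matched for 7 of the 10 genes, all but *Rb1cc1*, *Becn1* and *Bnip3l*. Capitals mark a motif match, and the 4 sequences run 5′ to 3′ on the gene's own strand.
Gabarapl1, chr6:129532942-129533241, plus strand: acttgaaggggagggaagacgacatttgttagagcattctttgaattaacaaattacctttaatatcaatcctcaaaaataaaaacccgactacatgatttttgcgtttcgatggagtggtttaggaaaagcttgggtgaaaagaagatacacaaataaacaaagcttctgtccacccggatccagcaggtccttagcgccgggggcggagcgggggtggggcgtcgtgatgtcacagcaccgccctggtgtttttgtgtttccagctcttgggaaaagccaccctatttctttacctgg
Map1lc3b, chr8:121590188-121590487, plus strand: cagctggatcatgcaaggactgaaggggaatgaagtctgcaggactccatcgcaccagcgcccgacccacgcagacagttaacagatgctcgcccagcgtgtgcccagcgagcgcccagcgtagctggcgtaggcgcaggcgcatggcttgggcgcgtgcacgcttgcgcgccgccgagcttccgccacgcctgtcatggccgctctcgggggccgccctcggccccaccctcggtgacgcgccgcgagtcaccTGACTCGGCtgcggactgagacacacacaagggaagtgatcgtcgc
Atg5, chr10:44268089-44268388, plus strand: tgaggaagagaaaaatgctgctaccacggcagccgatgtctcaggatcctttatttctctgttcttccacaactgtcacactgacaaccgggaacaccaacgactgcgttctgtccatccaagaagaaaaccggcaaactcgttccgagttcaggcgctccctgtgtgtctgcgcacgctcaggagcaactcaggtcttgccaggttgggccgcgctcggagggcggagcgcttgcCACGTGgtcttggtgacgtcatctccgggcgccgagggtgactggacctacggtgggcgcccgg
Sqstm1, chr11:50210771-50211070, minus strand: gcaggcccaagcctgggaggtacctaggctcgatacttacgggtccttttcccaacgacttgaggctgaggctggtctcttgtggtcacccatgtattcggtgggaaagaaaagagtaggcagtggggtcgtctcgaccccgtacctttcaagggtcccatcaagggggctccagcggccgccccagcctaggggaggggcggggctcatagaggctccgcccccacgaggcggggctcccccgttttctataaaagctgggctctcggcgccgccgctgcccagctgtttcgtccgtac
Motifs were searched on both strands in the promoters of 17342 genes. The CLEAR motif, the published site of the lysosomal factors TFEB and TFE3, was in 0.490% of all promoters and in 0 of the 7. The E-box CACGTG, which is the core of CLEAR, was in 8.19% of all and in that of *Atg5*, starting 14 bases before the start site. The hypoxia core ACGTG, which lies within each of these, was in 21.1% of all and only in *Atg5* among the 7, at the same place. The antioxidant element TGACNNNGC was in 13.3% of all and in that of *Map1lc3b*, at position 5 after the start site that the table gives, which lies 30 bases from the start in the deposited annotation. The CHOP-ATF4 element TGATGNAA, in 3.48% of all promoters, and the forkhead motif GTAAACA, in 3.00%, were in 0 of the 7. The *Gabarapl1* and *Sqstm1* promoters held none of the 6 motifs. A match is a run of letters and not a measured site, and a missing match concerns this window alone.

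*Sqstm1* (chr11:50200152-50210820, minus strand) encodes p62, the receptor that links ubiquitin-marked cargo to ATG8 proteins and is itself degraded by autophagy, and the lines departed from TM6 in both directions. TM6 held 16738, 17052 and 16206 normalised counts. The rho0 libraries held 34884, 28531 and 30252, PKO-1 held 11321, 10968 and 10437, and PKO-6 held 21161, 20953 and 19416. The 4 lines were separate, in the order PKO-1, TM6, PKO-6 and rho0. Its log2 fold change was 0.91 ± 0.072 in rho0 (edgeR, adjusted p = 7.35e-08) and -0.61 ± 0.072 in PKO-1 (adjusted p = 4.85e-06), both called, and 0.30 ± 0.071 in PKO-6 (adjusted p = 0.00189), not called. Between the clones the difference was called at -0.91 ± 0.072 in PKO-1 against PKO-6 (edgeR, adjusted p = 1.17e-07), a 1.88-fold lower level in PKO-1. The genes of chromosome 11 had medians of at most 0.13 in size in these 4 comparisons, and with them taken out each of these calls stayed. Relative to *Map1lc3b*, in TPM, *Sqstm1* was at 2.97 to 3.17 in TM6, 9.32 to 9.52 in rho0, 2.80 to 3.00 in PKO-1 and 4.90 to 5.40 in PKO-6.

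*Sqstm1* has 2 transcripts of 8 exons each in the annotation. The minor one (NM_001290769.1, 1916 bases) took 11.4%, 9.76% and 8.37% of the gene's counts in TM6, 11.3%, 11.9% and 11.3% in rho0, 11.6%, 11.9% and 10.7% in PKO-1, and 14.8%, 14.8% and 13.2% in PKO-6. The PKO-6 shares lay above those of all 9 other libraries. The shares are estimates by RSEM, and the difference was not tested.

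*Optn* (chr2:5020642-5063938, minus strand) encodes optineurin, a ubiquitin-binding receptor recruited in PINK1-dependent mitophagy. It was measured at 904, 863 and 926 normalised counts in TM6, 1116, 1050 and 1105 in rho0, 912, 870 and 917 in PKO-1, and 788, 770 and 886 in PKO-6. Only rho0 stood clear of TM6, and the clones overlapped it. The log2 fold change was 0.28 ± 0.066 in rho0 (edgeR, adjusted p = 0.00175), 0.00 ± 0.067 in PKO-1 and -0.14 ± 0.067 in PKO-6, and none was called. Of the 8 genes of soluble cargo receptors, 1 was called higher and 3 lower in rho0, 2 and 2 in PKO-1, and 1 and 2 in PKO-6. *Tollip*, for an adaptor that binds ubiquitin and ATG8 proteins, was called lower at -0.56 ± 0.047, -0.91 ± 0.048 and -1.24 ± 0.048 in rho0, PKO-1 and PKO-6.

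*Pink1* (chr4:138313410-138326296, minus strand) encodes the kinase that builds up on damaged mitochondria and phosphorylates ubiquitin there, and the clones parted in it. Its normalised counts were 998, 984 and 871 in TM6, 1180, 978 and 1006 in rho0, 707, 750 and 728 in PKO-1, and 1503, 1464 and 1207 in PKO-6. The rho0 libraries overlapped TM6, all of PKO-1 lay below it and all of PKO-6 above it. The log2 fold change was 0.15 ± 0.094 in rho0 (edgeR, adjusted p = 0.168), -0.38 ± 0.096 in PKO-1 (adjusted p = 0.00298) and 0.55 ± 0.093 in PKO-6 (adjusted p = 0.000125), and only the last was called. PKO-1 against PKO-6 was called at -0.93 ± 0.095 (edgeR, adjusted p = 1.47e-06), a 1.91-fold lower level in PKO-1. The PKO-6 call against TM6 was close to the threshold. It was lost without TM6 replicate 3, at 0.49, without PKO-6 replicate 1, at 0.46, without PKO-6 replicate 2, at 0.48, and with chromosome medians taken out, at 0.43, whereas the call between the clones held in each of these.

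*Bnip3l* (chr14:66985240-67008877, minus strand) encodes NIX, a mitophagy receptor of the outer mitochondrial membrane. It was measured at 5332, 6054 and 6073 normalised counts in TM6, 7496, 6798 and 7172 in rho0, 7646, 7159 and 6900 in PKO-1, and 5956, 5933 and 6100 in PKO-6. The rho0 and PKO-1 libraries lay above TM6 and the PKO-6 libraries within or next to its range. The log2 fold change was 0.30 ± 0.061 in rho0 (edgeR, adjusted p = 0.000623), 0.31 ± 0.061 in PKO-1 (adjusted p = 0.000484) and 0.04 ± 0.061 in PKO-6 (adjusted p = 0.546), none of them called. Of the 19 genes of mitophagy receptors and regulators in the count table, 3 were called higher and 1 lower in rho0, 2 and 0 in PKO-1, and 3 and 2 in PKO-6, with median log2 fold changes of -0.21, -0.04 and 0.07. *Nipsnap1*, for a mitochondrial protein that recruits autophagy receptors to damaged mitochondria, was called higher at 1.58 ± 0.075, 1.53 ± 0.075 and 1.52 ± 0.075 in rho0, PKO-1 and PKO-6. It rose from 284, 289 and 310 normalised counts in TM6 to between 796 and 943 in the 9 other libraries, with chromosome 11 medians near 0.

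When both clones were pooled as PKO, so that the gap between them counted as spread, 0 of the 10 genes were called higher and 2 lower against TM6, beside 25.7% of all genes (13.5% higher and 12.2% lower). These were *Rb1cc1* at -0.83 ± 0.10 (edgeR, adjusted p = 4.16e-05) and *Gabarapl1* at -0.71 ± 0.068 (adjusted p = 7.09e-06). *Map1lc3b* was at -0.48 ± 0.076, short of the fold threshold. *Sqstm1* at -0.09 ± 0.240 and *Pink1* at 0.16 ± 0.254 had the widest errors of the 10 genes, since their gap between the clones entered the spread. For both genes PKO-1 lay below TM6 and PKO-6 above it. The median of the 10 genes was -0.15 and that of all tested genes 0.03.

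The pooled clones were also compared with rho0, which sets both clones without PNPase against 1 clone from drug treatment. By the paper's measurements, both sides of this comparison lack mitochondrial DNA. Loss of PNPase, the drug and the choice of clone cannot be told apart in this comparison. Of the 10 genes, 1 was called higher and 1 lower, beside 10.7% of all genes (6.33% higher and 4.36% lower). *Gabarapl1* was 1.50-fold higher in PKO than in rho0, at a log2 fold change of 0.59 ± 0.071 (edgeR, adjusted p = 0.00015), with all 6 PKO libraries above the 3 of rho0. *Sqstm1* was lower in PKO at -0.99 ± 0.233 (edgeR, adjusted p = 0.00811), again without overlap, but the size of the gap differed by clone, with means (± SD, n = 3) of 10909 ± 445 for PKO-1, 20510 ± 953 for PKO-6 and 31222 ± 3286 for rho0. Of the 12 fits without a library, 9 lost this call, at adjusted p-values of 0.0116 to 0.0302 (edgeR). *Ulk1* at 0.35 ± 0.066 (edgeR, adjusted p = 0.00254) and *Optn* at -0.35 ± 0.073 (adjusted p = 0.00453) did not overlap between PKO and rho0 either but were below the fold threshold. The genes of chromosome 5 had a median of 0.32 in PKO against rho0, and relative to it *Ulk1* was at 0.03. *Rb1cc1* was at -0.08 ± 0.102 (edgeR, adjusted p = 0.555), so that a difference between PKO and rho0 was not detected for this gene. The median of the 10 genes was -0.04 and that of all tested genes 0.02.

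The other steps of the pathway were read from 7 lists of autophagy and mitophagy genes, which hold the 10 genes and 95 more. Of these 105, 13 were called higher and 23 lower in rho0, 11 and 18 in PKO-1, and 17 and 18 in PKO-6. That is 34.3%, 27.6% and 33.3% of the lists, below the share of all tested genes called in each comparison. The median log2 fold change was -0.07, -0.09 and -0.02. Of the 16 genes of autophagosome fusion, 1 was called higher and 2 lower in rho0, 1 and 3 in PKO-1, and 2 and 2 in PKO-6. *Lamp2*, for a lysosomal membrane protein, was called lower at -1.22 ± 0.061, -0.87 ± 0.060 and -1.11 ± 0.060 in rho0, PKO-1 and PKO-6. It lies on the X chromosome, whose 459 tested genes had medians of -0.75, -0.74 and -0.87, and relative to them it was at -0.46, -0.13 and -0.24, short of the fold threshold in each line. *Vamp8*, for a SNARE of autophagosome and lysosome fusion, was called lower at -0.74 ± 0.10, -0.53 ± 0.099 and -0.58 ± 0.099, and *Epg5*, for a tether of the same step, was called higher at 0.98 ± 0.052, 0.75 ± 0.052 and 0.66 ± 0.052. The genes of the chromosome that holds *Epg5* had medians of 0.42, 0.42 and 0.34, and relative to them it was at 0.55, 0.34 and 0.32, past the fold threshold only in rho0.

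Of the 23 upstream kinases and transcription factors, 3 were called higher and 6 lower in rho0, 1 and 4 in PKO-1, and 4 and 4 in PKO-6. *Tfeb*, which encodes a transcription factor of lysosomal and autophagy genes, held 770, 763 and 684 normalised counts in TM6, 134, 125 and 112 in rho0, 249, 273 and 267 in PKO-1, and 203, 269 and 192 in PKO-6. It fell by 2.58 ± 0.128, 1.49 ± 0.120 and 1.74 ± 0.121 on the log2 scale, the largest change of this list in rho0 and in PKO-6. *Mitf*, of the same factor family, was called higher at 0.69 ± 0.082, 1.64 ± 0.081 and 1.02 ± 0.081. *Deptor*, for an inhibitor of the mTOR kinase, was called lower at -2.45 ± 0.080, -1.50 ± 0.076 and -1.17 ± 0.074.

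**Figure D4:**
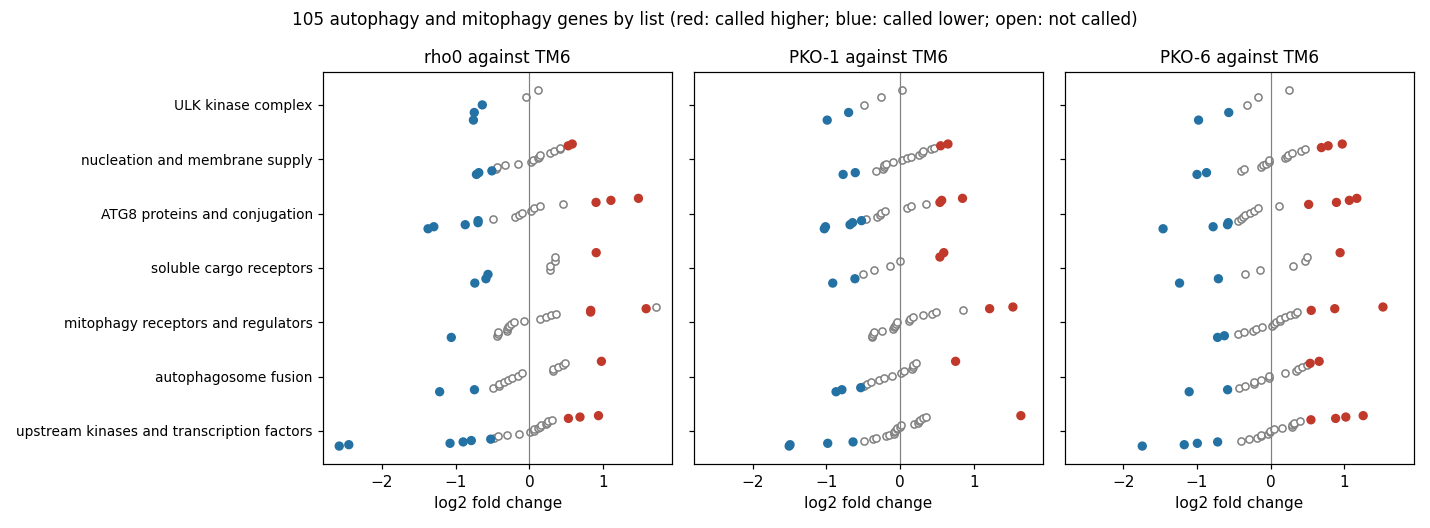
log2 fold change of 105 autophagy and mitophagy genes in 7 lists, for rho0, PKO-1 and PKO-6 against TM6, with each point a gene, red for called higher, blue for called lower and open for not called. In rho0 13 points are red and 23 blue, and most lists hold both colours.

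For the 2 genes that were called lower in each derived line, the genes with the most similar level over the 12 libraries were *Clspn* (Pearson r = 0.994 of log2 CPM) and *Fmr1* (r = 0.991) for *Rb1cc1*, and *Coro1c* (r = 0.991) and *Kirrel* (r = 0.989) for *Gabarapl1*. These values describe 12 libraries that fall into 4 lines and share their depth and scaling, so they carry no test. *Fmr1* lies on the X chromosome, whose genes had medians of -0.75, -0.74 and -0.87 in rho0, PKO-1 and PKO-6 against TM6.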

How the data were processed

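RNA-seq libraries of 12 cultures (3 each of TM6, rho0, PKO-1 and PKO-6) were re-analysed. The authors removed ribosomal RNA, prepared stranded libraries as technical duplicates that were then merged, and ran RSEM 1.2.25 with Bowtie2 on RefSeq transcripts of mm10 (GRCm38). The deposited values are expected counts (estimated, not normalised) per gene for the series and, per transcript in each library, expected counts and TPM values that the authors' RSEM run gave. Of the gene values, 12.5% held decimals, so they were rounded. The table held 0 entries of mitochondrial DNA, so its RNA was not analysed here.

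In R 4.3.3, edgeR 4.0.16 (TMM, filterByExpr at min.count 10, quasi-likelihood test) was fitted to 14026 genes, with 4 lines as groups or with both clones pooled. Genes were called at an adjusted p (Benjamini-Hochberg over all tested genes) below 0.01 if the log2 fold change exceeded 0.5 in size. Normalised counts are counts divided by the TMM-scaled library size relative to its mean. The standard error is the log2 fold change divided by the square root of the F statistic. Depth per library was 47164860 to 67991378 counts. TPM served to compare genes with each other and to describe each line, and entered no test between lines. No pair of libraries agreed within sampling noise (lowest chi-square per gene 4.53).

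The alternatives were DESeq2 size factors, the Wald test of DESeq2 1.42.0, a replicate block, no filter on low counts, other groupings in the fit, chromosome medians removed, and each library left out in turn. The test was checked on simulated data. Named genes were the 10 members, *Pnpt1*, up to 3 further genes a list called in the same direction in all 3 derived lines (mean of at least 100 normalised counts, largest mean change), and the 2 genes most correlated with each member called the same way in all 3 lines. *Park2* and *Gbas* are the older symbols under which the table holds 2 of the listed genes. The members and the lists were chosen with earlier results of these data known. Groups came from the sample titles. Promoters and motifs were read from RefSeq promoters of GRCm38.p6.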

Additional observations from a re-analysis of the deposited data

Results flagged for a closer look

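*Sqstm1* and *Pink1* are listed here because PKO-1 and PKO-6, which carry the same deletion, differed from each other by a test of the difference itself. The log2 fold change of PKO-1 against PKO-6 was -0.91 for *Sqstm1* and -0.93 for *Pink1* (edgeR's quasi-likelihood test with Benjamini-Hochberg adjustment, adjusted p = 1.17e-07 and 1.47e-06), with all 3 PKO-1 libraries below all 3 of PKO-6 for each gene.

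*Sqstm1* and *Gabarapl1* are listed because their change from TM6 differed between the pooled PKO clones and rho0. For *Sqstm1* PKO against rho0 was -0.99 (edgeR's quasi-likelihood test with Benjamini-Hochberg adjustment, adjusted p = 0.00811), with PKO-1 below TM6 and both PKO-6 and rho0 above it. This call was lost with the replicate block and in 9 of 12 fits without a library. For *Gabarapl1* it was 0.59 (adjusted p = 0.00015), where all lines lay below TM6 and rho0 was the lowest.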

How the results depend on the processing

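The directions of all member calls held under every alternative, and the calls of *Rb1cc1* and *Gabarapl1* against TM6 and of *Sqstm1* in rho0 and PKO-1 against TM6 were kept in each. The counts of called genes that moved by over 1.5 times belong to PKO against rho0. The members called there were 1 to 2 when a library was left out, and 1 with the replicate block, where *Sqstm1* was at -0.99 (edgeR, adjusted p = 0.0213). Replicate numbers did not pair the samples, since same-numbered deviations correlated at -0.385 to 0.250 (10 of 18 pairs over 0.1) and 5 of 12 libraries were closest to their own number. Differently numbered pairs of libraries from different lines correlated at -0.415 to 0.490, and the source of these correlations was not tested. The block changed no other member call. All genes called in PKO against rho0 numbered 1500, with 3330 from the mean of both clones in the fit of 4 lines and 841 to 1699 when a library was left out (853 without rho0 replicate 2 and 841 without rho0 replicate 3). Pathway genes called were 14, with 8 after chromosome medians were removed and 8 to 15 when a library was left out (9 without rho0 replicate 2 and 8 without rho0 replicate 3). The cause was not tested.

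Calls near the fold threshold changed. *Atg5* in rho0 was called with DESeq2 size factors and the Wald test, both at -0.50, with no filter on low counts at -0.50, with the compared groups alone at -0.52, and in 5 of 12 fits without a library. With chromosome medians removed, *Atg5* in rho0 was at -0.32 and not called. *Map1lc3b* in PKO against TM6 was called with size factors and the Wald test, both at -0.50, and in 5 of 12 fits without a library. Removing chromosome medians ended the calls of *Ulk1* in rho0 (-0.42), *Map1lc3b* in PKO-1 (-0.41) and *Pink1* in PKO-6 (0.43), and left *Map1lc3b* in PKO-6, which was not called at -0.45, at -0.02.

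Signs turned only for small differences that were not called. *Optn* in PKO-1 against TM6 was at -0.0198 with size factors and with the Wald test, -0.0152 with no filter, -0.0194 with the compared groups alone, and -0.0278 to 0.0292 when a library was left out. *Pink1* in PKO against rho0 was at -0.00495 with size factors, -0.00521 with the Wald test, -0.0678 from the mean of both clones, and -0.117 to 0.10 when a library was left out. With chromosome medians removed, *Pink1* in rho0 was at -0.00270, *Becn1* and *Atg5* in PKO-1 against PKO-6 at -0.0583 and 0.105, and *Optn* in PKO against TM6 at 0.0102. Leaving out a library took *Bnip3l* in PKO-6 against TM6 to -0.0514 to 0.0730 and *Sqstm1* in PKO against TM6 to -0.214 to 0.00877.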

Other observations

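The genes in this section were chosen after their values were seen. The remaining ATG8 genes did not move as a block. *Gabarap*, the highest of the 5 ATG8 genes of the table at 257 ± 7.18 TPM in TM6 (SD, n = 3), was called lower in rho0 at a log2 fold change of -0.69 and in PKO-6 at -0.59, and was at -0.28 in PKO-1. *Gabarapl2* was called lower in rho0 at -0.87, and was at 0.10 in PKO-1 and -0.38 in PKO-6. *Map1lc3a* was at 0.06 in rho0 and -0.27 in PKO-6, and was called lower in PKO-1 at -0.68. PKO against rho0 was called for *Gabarapl2* at 0.75, as for *Gabarapl1* in the report, and not for *Gabarap* at 0.27 or *Map1lc3b* at 0.21.

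*Bnip3*, whose product is the closest relative of NIX, was called higher in rho0 at 0.83 and in PKO-1 at 1.21, and was at 0.07 in PKO-6, with 1661, 1909 and 1831 normalised counts in TM6, 3393, 3015 and 3198 in rho0, 4544, 4277 and 3711 in PKO-1, and 1990, 1735 and 1958 in PKO-6. The PKO-6 libraries overlapped TM6, and those of rho0 and PKO-1 lay above. *Bnip3* was 1.14 higher in PKO-1 than in PKO-6 on the log2 scale, a call, where *Bnip3l* was at 0.27 and was not called. *Bnip3l* exceeded *Bnip3* in TPM by a factor of 1.63 to 1.70 in TM6, 1.14 to 1.16 in rho0 and 1.54 to 1.77 in PKO-6, and lay below it in PKO-1 at 0.863 to 0.957.

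*Park2*, the symbol under which the table holds the gene of the ubiquitin ligase Parkin, varied widely between cultures of a line, with 1971, 363 and 696 normalised counts in TM6, 4349, 3037 and 2653 in rho0, 365, 3066 and 2064 in PKO-1, and 1732, 1309 and 780 in PKO-6. All rho0 libraries lay above TM6, at a log2 fold change of 1.72 ± 0.62 (SE), but the difference was not called (edgeR's quasi-likelihood test with Benjamini-Hochberg adjustment, adjusted p = 0.0241). The source of this spread was not tested. *Tfe3*, the relative of *Tfeb* that the rule for named genes left out as the fourth of its list, was called lower in each line, at -0.90, -0.98 and -0.99. It lies on the X chromosome, and relative to the median of that chromosome it was at -0.14, -0.24 and -0.13, short of the fold threshold in each line.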
